A study of Brassica napus with 6 samples.

Results

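Pectate lyase genes were examined in oilseed rape (Brassica napus, Nourin No.16) whose roots had been exposed to cadmium with or without glutathione. The genes were 10 Arabidopsis pectate lyase loci, listed as genes of vegetative tissue with earlier results of these arrays known. Each was the single annotated gene of exactly 1 probe set, and 13350 genes in all had at least 1 probe set annotated to them alone. Varying genes were selected on the range of their signal over all arrays, and the rule would have taken the probe set with the highest mean signal for a gene with several. They were AT1G04680, AT1G67750, AT3G07010, AT3G24670, AT3G27400, AT4G13710, AT4G24780, AT5G48900, AT5G63180 and AT3G53190. By their locus codes, 2 lie on Arabidopsis chromosome 1, 4 on chromosome 3, 2 on chromosome 4 and 2 on chromosome 5.

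In the cadmium plus GSH group, plants stood for 2 days in hydroponic solution with 10 µM cadmium chloride and reduced glutathione (GSH), a tripeptide thiol, whose concentration the labels give as 100 mM, a value that could not be checked here. In the cadmium only group, plants stood for the same 2 days in the solution with 10 µM cadmium chloride and no GSH. Each group had 3 biological replicates, with 1 array each, and both groups received cadmium, so no value here is one without cadmium. The array carries probes for Arabidopsis thaliana: each gene named is the Arabidopsis gene of its probe set, its oilseed rape copies were not separated, and signals of different probe sets cannot be ranked as transcript levels.

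Pectate lyases cut homogalacturonan, the acidic backbone of pectin, at stretches that carry few methyl groups, and they need calcium to do so. Pectin methylesterases remove the methyl groups and so provide these stretches, inhibitor proteins hold the methylesterases back, and polygalacturonases cut the same stretches by hydrolysis. The exposed acid groups of pectin bind calcium and other metal ions, cadmium among them. In Arabidopsis the pectate lyase family has members expressed in growing vegetative organs and others expressed mainly in pollen.

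AT1G04680 was the 1 pectate lyase gene of the 10 whose signal differed between arrays, and it was higher on each cadmium plus GSH array than on any cadmium only array, by 0.46 on the log2 scale (1.37-fold), without passing the adjusted threshold. The other 9 genes held a single value on all 6 arrays, so the deposited values carry no information on their response. Varying here means a range of over 0.01 on the log2 scale across the 6 arrays. Of 22746 tested probe sets, 2428 (10.7%) varied, so 1 varying gene of 10 was close to the share among all probe sets. The range of AT1G04680 was 0.680, and the widest range among the other 9 genes was 8.1e-08, in AT3G53190.

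**Figure D1:**
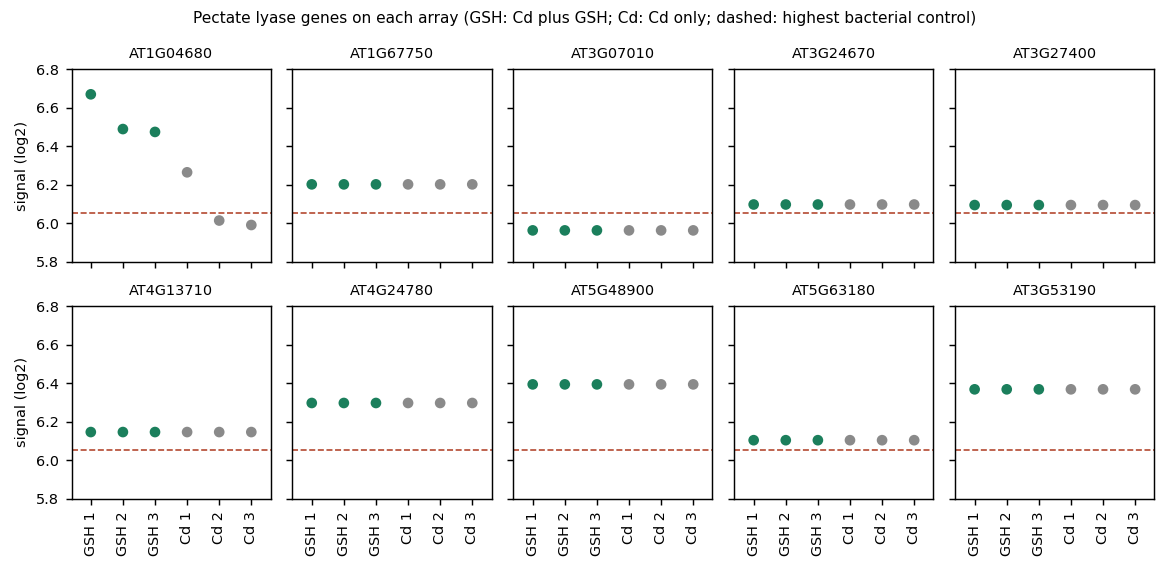
Log2 signal (vertical axis) of each of the 10 pectate lyase genes on the 3 cadmium plus GSH arrays (green) and the 3 cadmium only arrays (grey). Each point is 1 array, and the dashed line marks 6.05, the highest mean of the bacterial control probe sets; AT1G04680 has its 3 cadmium plus GSH values above its 3 cadmium only values, and each of the other 9 genes forms a flat row.

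AT1G04680 had log2 signals of 6.67, 6.49 and 6.47 on the cadmium plus GSH arrays of replicates 1, 2 and 3, against 6.26, 6.01 and 5.99 on the cadmium only arrays of replicates 1, 2 and 3. The groups did not overlap: the lowest cadmium plus GSH value lay above the highest cadmium only value, which was that of replicate 1. The means were 6.54 ± 0.11 in cadmium plus GSH roots and 6.09 ± 0.15 in cadmium only roots (SD, n = 3 each). The log2 difference was 0.46 (SE 0.09), with a limma 95% interval from 0.22 to 0.69. Its adjusted p was 0.219 in limma with Benjamini-Hochberg adjustment over the 2428 varying probe sets, and 0 of these (0%) had an adjusted p under 0.05, while 312 (12.9%) had an unadjusted p under 0.05. A plain two-sample test of the same values also gave 0 adjusted calls, and 254 at an unadjusted p under 0.05. The exact two-sided permutation p over the arrays was 0.1, the smallest that 3 arrays against 3 can give.

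The gene was listed with this difference already known, so the difference is a description of these arrays and not independent evidence. Among the varying probe sets, 216 (8.9%) were higher on every cadmium plus GSH array than on any cadmium only array. In limma's fit 150 (6.18%) were higher and 162 (6.67%) lower with an unadjusted p under 0.05, and AT1G04680 was among the higher ones, with the 44th smallest unadjusted p of all varying probe sets. A rise of at least the same size was seen in 40 varying probe sets (1.65%). The median difference over all varying probe sets was -0.00072 on the log2 scale.

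The signal of AT1G04680 lay near the background of the array in cadmium only roots. The highest mean among 27 control probe sets for bacterial genes was 6.05; all 3 cadmium plus GSH values of AT1G04680 exceeded it, against 1 of 3 cadmium only values. Leaving out each array in turn gave differences between 0.39 without cadmium plus GSH replicate 1 and 0.54 without cadmium only replicate 1. The limma adjusted p then ran from 0.0896 to 0.472. As the groups did not overlap, leaving out 1 array could not turn the sign.

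Among the 9 constant genes, 8 had a signal above the highest bacterial control. Of the 2428 varying probe sets, 1721 had a mean above it, and the share among all constant probe sets was not counted. A single value held on all arrays does not show that a gene was expressed in these roots. AT5G48900 stood at 6.39 on every array of both groups, AT3G53190 at 6.37 and AT4G24780 at 6.30. AT1G67750 stood at 6.20 and AT4G13710 at 6.15. AT5G63180, AT3G24670 and AT3G27400 stood at 6.10, 6.10 and 6.09. AT3G07010, at 5.96, was the 1 gene of the 10 whose mean was not above the highest bacterial control.

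Over the varying probe sets the array medians ran from 6.26 to 6.27 with GSH and from 6.27 to 6.29 with cadmium alone. The gap between an actin 3' and 5' control probe set, a measure of how far labelled RNA reaches along a transcript, ran from 1.37 to 1.51 with GSH and from 1.19 to 1.29 with cadmium alone, and its part in the difference of AT1G04680 was not tested. On the first principal component of the varying probe sets, which held 57.1% of the variance, the cadmium plus GSH arrays lay at -7.03, -3.85 and -3.50 and the cadmium only arrays at 8.54, 3.87 and 1.97. Cadmium only replicate 1 was thus the array farthest from the cadmium plus GSH side, although its AT1G04680 value was the closest of its group to theirs. Of 8 root markers 2 were matched and both were above the bacterial controls at a constant value (PYK10, a root beta-glucosidase, at 7.06, and EXPA7, a root hair expansin, at 6.50). Of 8 green tissue markers 2 were matched, both constant. RCA, at 6.04, was under the highest bacterial control (6.05), and LHCB4.1, at 6.07, was above it. A green tissue marker thus passed the same limit in these roots as the 2 root markers and 8 of the constant pectate lyase genes. Passing it at a constant value is therefore no sign of root expression.

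Across the rest of the pectate lyase family, 13 of 16 loci were matched and 1 varied. This was AT59, a gene expressed in pollen, and the 1 matched of 5 pollen markers. AT59 had 5.71, 5.71 and 5.71 on the cadmium plus GSH arrays, against 5.72, 5.71 and 5.72 on the cadmium only arrays. All 6 values were under the highest bacterial control and the groups overlapped. The limma 95% interval of its log2 difference ran from -0.04 to 0.03. Over the whole family, 2 of 23 matched genes therefore varied, and neither passed the adjusted threshold. The range of AT59, 0.0112, was just over the limit of 0.01, so the count of 2 depends on that limit. Of the other 12 family genes, all constant, AT3G55140 (6.14) and AT5G04310 (6.10) were above the highest bacterial control.

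The other genes of pectin metabolism were taken from 8 lists of 190 loci, of which 106 were matched and 11 (10.4%) varied, against 10.7% of all tested probe sets. Of the 11, 6 had a positive and 5 a negative difference, 0 passed the adjusted threshold in either direction, and 1 had an unadjusted p under 0.05, against 12.9% of varying probe sets. Their median difference was 0.00 on the log2 scale. The gene with the unadjusted p under 0.05 was AT5G62350, of the family of invertase and pectin methylesterase inhibitors.

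AT5G62350 had 7.13, 7.11 and 7.06 on the cadmium plus GSH arrays of replicates 1, 2 and 3, against 6.78, 6.99 and 6.82 on the cadmium only arrays. The groups did not overlap, all 6 values were well over the bacterial controls, and the cadmium plus GSH values lay close together. The log2 difference was 0.24 (SE 0.06), and its 95% interval in limma was 0.08 to 0.40 (adjusted p = 0.248). It was the 1 varying gene of 10 matched of 15 loci for pectin methylesterase inhibitors. The other 9 were constant, 2 of them above the bacterial controls, AT1G62770 at 6.41 and AT3G47380 at 6.11.

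**Figure D2:**
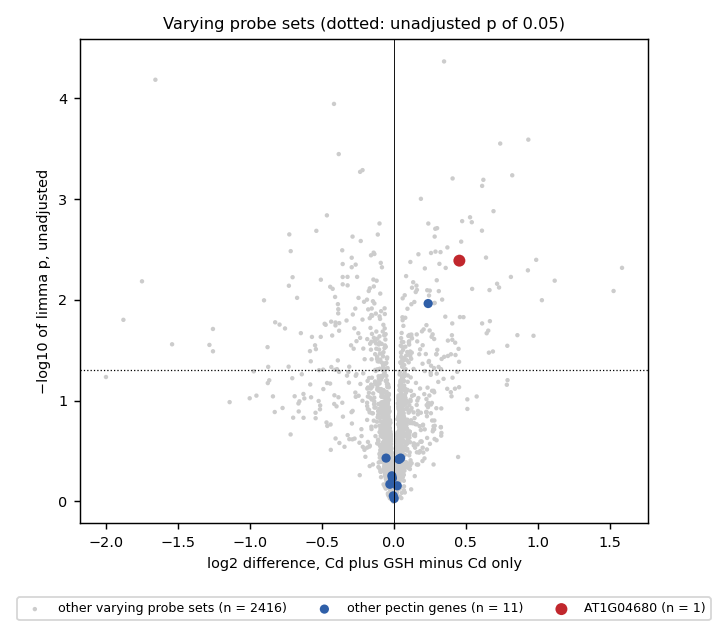
Log2 difference, cadmium plus GSH minus cadmium only (horizontal axis), against −log10 of the unadjusted limma p (vertical axis) for the 2428 varying probe sets. AT1G04680 (red) and AT5G62350, the highest of the 11 other pectin genes (blue), lie above the dotted line at an unadjusted p of 0.05, and the other 10 pectin genes lie below it.

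Of 65 pectin methylesterase loci, 43 were matched and 4 varied, and 0 passed in either direction. AT3G10720 had a mean of 6.27 in cadmium plus GSH roots and 6.23 in cadmium only roots, with a log2 difference of 0.04 (SE 0.04). AT5G07430 had means of 5.85 and 5.81 in cadmium plus GSH and cadmium only roots, under the bacterial controls on all arrays. PME61 differed by -0.01 (SE 0.02) and AT3G47400 by -0.00 (SE 0.02), so the groups of all 4 methylesterases overlapped and none of the limma intervals reached beyond 0.14 in size. The other 39 held a single value, among them PMEPCRF and ATPMEPCRD at 6.45 each and AT5G19730 at 6.43.

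Of 61 polygalacturonase loci, 42 were matched and 5 varied, and 0 passed in either direction. AT4G01890 was above the bacterial controls on all arrays, with means of 6.15 in cadmium plus GSH roots and 6.13 in cadmium only roots and a log2 difference of 0.02 (SE 0.06). AT2G43870 (0.05, SE 0.05), AT5G14650 (-0.05, SE 0.06) and AT2G43880 (-0.03, SE 0.06) had mean signals under the bacterial controls in both groups, and none of these log2 differences exceeded its SE in the fit of all 6 arrays. Leaving out 1 array moved AT2G43870 to as much as 0.10 (SE 0.03, without cadmium plus GSH replicate 2) and AT5G14650 to as much as -0.10 (SE 0.05, without cadmium plus GSH replicate 1), with no adjusted call. For these polygalacturonases the groups overlapped.

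Of 10 pectin acetylesterase loci, whose products remove acetyl groups from pectin, 4 were matched and 1 varied: AT1G57590 differed by -0.01 (SE 0.02). Of 7 rhamnogalacturonan lyase loci, whose products cut the branched part of pectin, 5 were matched and all were constant. Of 25 loci for homogalacturonan synthesis 2 were matched, GAUT15 at 6.14 and AT3G49720 at 6.93, both constant. None of the 2 loci for polygalacturonase-inhibiting proteins or the 5 for wall-associated kinases, receptors that bind pectin, was matched.

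**Figure D3:**
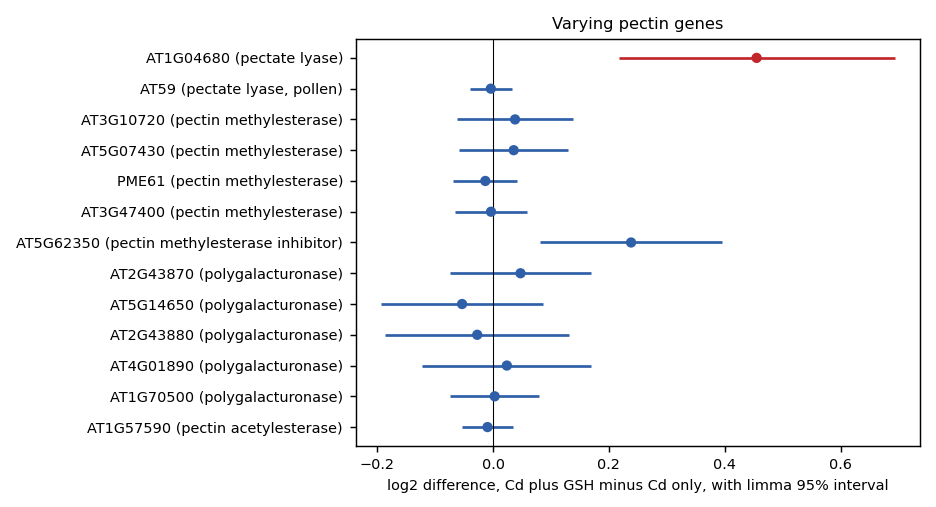
Log2 difference, cadmium plus GSH minus cadmium only (horizontal axis), of the 13 varying pectin genes, with limma 95% intervals as lines. The intervals of AT1G04680 (0.22 to 0.69) and AT5G62350 (0.08 to 0.40) lie to the right of 0, and the other 11 span 0; intervals are not adjusted for the number of genes.

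The genes whose values were most like those of AT1G04680 were sought by Pearson's r over the 6 arrays among 772 genes that varied and had a mean above the bacterial controls. The 5 closest were AT4G12600, of a ribosomal protein family (r = 0.98), TUB7, a beta-tubulin (r = 0.97), AT2G17360, a protein of the small ribosomal subunit (r = 0.96), AT3G05560, a protein of the large ribosomal subunit (r = 0.95) and AT1G63660, of guanine nucleotide synthesis (r = 0.94). An r over 0.9 was reached by 17 of the 772 genes (2.20%). The 6 points fall into the same 2 groups for every gene, so a shared difference between groups raises r. After each group's mean was taken off, r with AT1G04680 was 0.90 for AT4G12600, 0.80 for TUB7, 0.94 for AT2G17360, 0.93 for AT3G05560 and 0.96 for AT1G63660. The 5 genes were picked for a high r on these same arrays, which also favours a high r within groups. These values describe 6 arrays and carry no test.

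AT4G12600 had 8.11, 7.84 and 7.95 on the cadmium plus GSH arrays, against 7.62, 7.44 and 7.44 on the cadmium only arrays, a log2 difference of 0.47 (SE 0.09). TUB7 had 7.92, 7.93 and 7.81 on the cadmium plus GSH arrays, against 7.57, 7.29 and 7.38 on the cadmium only arrays, a log2 difference of 0.47 (SE 0.08). In both genes, as in AT1G04680, the groups did not overlap and cadmium only replicate 1 was the highest of its group. AT2G17360 differed by 0.12 (SE 0.04), AT3G05560 by 0.33 (SE 0.12) and AT1G63660 by 0.30 (SE 0.12), and in these 3 the cadmium only replicate 1 value overlapped the cadmium plus GSH values. The limma adjusted p of the 5 genes ran from 0.204 to 0.404.

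**Figure D4:**
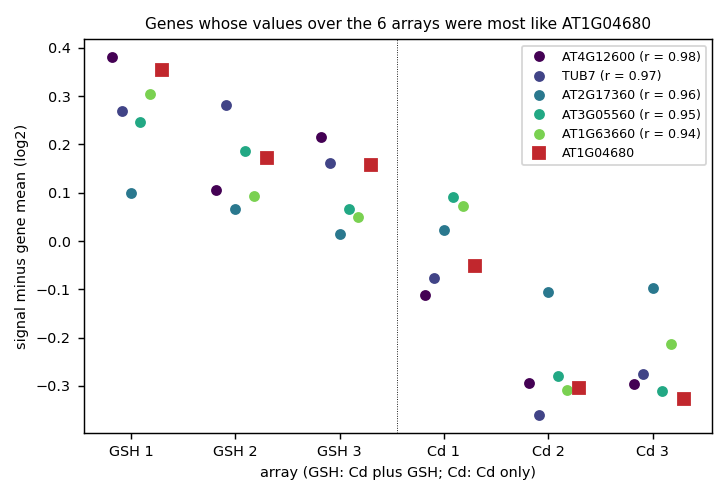
Log2 signal minus each gene's own mean over the 6 arrays (vertical axis) for AT1G04680 (red squares) and the 5 genes with the highest Pearson's r to it (circles), on each cadmium plus GSH array (left) and cadmium only array (right). Cadmium only replicates 2 and 3 hold the lowest values of all 6 genes, and cadmium only replicate 1 lies between them and most of the cadmium plus GSH values.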

How the data were processed

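One array per sample was hybridised with biotin-labelled cRNA from total root RNA, per the labels' protocols. The deposited table holds log2 signals, a value for every probe set on every array; the base was inferred from the range of the tested values, 5.20 to 11.40. The submitters' processing notes name R 2.7.2; background correction, normalisation and summary are not given in the sources used here, and no scan date or slide was given. No further normalisation was applied.

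Probe sets were named from the platform annotation when it gave 1 gene (13513 of 22746 tested; 64 control sets kept apart), by locus or, for 11 loci, by symbol. The brightest probe set stood for a gene. Differences were fitted with limma 3.58.1 in R 4.3.3 over all probe sets ranging over 0.01, a limit that uses the same arrays as the comparison, with Benjamini-Hochberg adjustment at 0.05. Figures used Python 3.11.15 and matplotlib 3.10.9. The fit was tested on simulated data, where recovery of calls was required only for differences larger than that of AT1G04680. The members, lists, range limit and tests were chosen with earlier results of these data known. All matched members were named, and from each list up to 4 varying genes by smallest p; the 5 most alike genes were taken by r.

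The replicate numbers were checked for pairing: over the varying probe sets, the deviations of same-numbered arrays from their group means correlated at -0.11, -0.21 and 0.13, so the numbers were not taken to pair the arrays. Alternatives were other range limits, quantile normalisation, median centring, the replicate block, robust eBayes with an intensity trend, a filter on dim probe sets, a plain two-sample test, averaging probe sets and leaving out each array. The number of arrays limits the precision.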

Additional observations from a re-analysis of the deposited data

How the results depend on the processing

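AT1G04680 had no adjusted call in any of the 16 alternatives. Its adjusted p ran from 0.0896 (limma without cadmium only replicate 1) to 0.753 (limma with all probe sets fitted). Its difference lay between 0.39 and 0.54, but most alternatives could not turn its sign. Leaving out 1 array cannot reverse groups that do not overlap. Changing or dropping the range limit, the dim filter, the block, robust eBayes, the plain test and averaging its 1 probe set leave the difference unchanged. Quantile normalisation gave 0.48 and median centring 0.47. In limma with a replicate block AT1G04680 differed by 0.46 (SE 0.03, against 0.09 without the block). Its unadjusted p was then 0.00022, against 0.0041 in limma without the block, and its adjusted p 0.204. The count of calls with the block stayed at 0, and samples share only a number. The count of varying members stayed at 1 with both other range limits. The count of calls, 0 over the 2428 varying probe sets, was 42 (26 higher, 16 lower) over all 22746 fitted probe sets. These 42 were counted over constant and varying probe sets together. The count was 5 (3 higher, 2 lower) over the 1516 probe sets with a range over 0.1. With quantile normalisation of the varying probe sets it was 2 (2 lower, 0 higher). The cause was not tested. Leaving out 1 array gave 0 to 13 calls, 0 to 6 higher and 0 to 7 lower, with 13 only without cadmium only replicate 3. AT1G04680 was not among these calls.

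AT5G62350 kept its direction in its 15 alternatives, with adjusted p from 0.163 to 0.789. Over the 11 named pectin genes other than AT1G04680, 13 of 156 alternatives turned the sign of a difference near 0. With median centring AT59 was at 0.0081, AT3G47400 at 0.0084 and AT1G57590 at 0.0024, and with quantile normalisation AT3G47400 was at 0.00065. Leaving out 1 array gave 0.0213 to 0.0969 for AT2G43870, -0.0974 to -0.0269 for AT5G14650, -0.0225 to 0.0141 for AT3G47400, -0.0736 to 0.0186 for AT2G43880, -0.00774 to 0.0779 for AT4G01890, -0.0272 to 0.00475 for PME61 and -0.0018 to 0.059 for AT3G10720. Signal close to the bacterial controls limits AT1G04680 in cadmium only roots and most of the polygalacturonases.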
